A study of Homo sapiens with 36 samples.

Results

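MCF-10A ER-Src cells that had received small interfering RNAs against JUNB (JUNBi) were compared after tamoxifen (TAM) and after ethanol (ETH), the vehicle. The question was which part of the response to TAM is measured when JUNB is knocked down. The comparison uses 4 libraries, 2 of JUNBi TAM and 2 of JUNBi ETH, out of 20 from this line and 36 in the series, and they were chosen by their titles. MCF-10A is a non-transformed line of human breast epithelium. The ER-Src derivative carries the v-Src oncoprotein joined to an estrogen receptor fragment that binds tamoxifen, which turns Src on and drives the cells to a transformed state. The labels call the TAM libraries transformed and the ETH libraries non-transformed. They name tamoxifen (0.4 to 1 µM) together with AZD0530 (2 to 4 µM) as the agents used, on samples of either treatment alike, and they give neither the dose in a library nor the hours of treatment. All groups were grown in the same medium, with charcoal-stripped serum, EGF, hydrocortisone, cholera toxin and insulin. The siRNAs were a commercial pool given before the treatment, and the comparison groups were cells with a control siRNA (Ctrli) or siRNAs against STAT3 (STAT3i), again with TAM or ETH and 2 libraries per group. A pool of siRNAs lowers an mRNA and does not delete the gene, and the labels do not say whether the 2 libraries of a group came from separate cultures, so p-values measure the spread between these libraries.

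JUNB is a member of AP-1, a family of transcription factors in which JUN and FOS proteins pair and bind DNA at the sequence TGANTCA. STAT3 is a transcription factor that cytokines of the IL-6 family, and Src itself, switch on by phosphorylation. STAT proteins bind sites of the form TTCNNNGAA and turn on SOCS3, which shuts the receptor off again, and acute phase proteins, the secreted proteins that rise in inflammation.

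The 4 JUNBi libraries held 12135235 to 14945457 expected counts, within the 6419720 to 19161700 of all 20 ER-Src libraries. The pair of JUNBi ETH libraries stood apart from each other. Among 7797 protein-coding genes whose normalized counts averaged 200 or more, the log2 ratio of replicate 1 to replicate 2 had an SD of 0.53 in JUNBi ETH, against 0.251 in JUNBi TAM, 0.177 in Ctrli ETH and 0.376 in STAT3i ETH. This ratio followed the GC content of the transcripts. Its correlation with GC content across genes was -0.879 in JUNBi ETH and -0.75 in JUNBi TAM, a description over genes that share the same libraries. The median log2 ratio of ETH 1 to ETH 2 was 0.49 in genes with a GC content of up to 42.5% and -0.67 in genes with 55.9% or more, whereas the difference between the TAM and ETH means had a correlation of only -0.15 with GC content. Genes rich in GC were thus measured lower in ETH 1 than in ETH 2, and results that rest on 1 ETH library are given with and without it. The median GC content was 53.1% in the genes called lower in TAM, 50.5% in those called higher and 49.1% in all tested. The median difference between the length and the effective length of a gene was 49.0 bases in all JUNBi and STAT3i libraries and 49.5 in Ctrli, so that library preparation or read length and the siRNA cannot be told apart where JUNBi and Ctrli are compared. All 9 markers of basal breast epithelium, KRT5 and TP63 among them, were at 1 TPM or more in all 4 libraries, with a summed level of 2874 to 3387 TPM. Of 4 blood markers, CD3E was at 0 in all 4 libraries, and the sum of the 4 was 3.83 to 6.4 TPM. CDH5, an endothelial marker, was also at 0, and the sum of the 3 endothelial markers was 0.09 to 0.79 TPM. The blood sum was nearly all CD14 (3.82 to 6.4 TPM). Fibroblast markers summed to 36.6 to 50.7 TPM, nearly all from DCN (34.6 to 48.2), while COL1A1, COL1A2 and PDGFRB were at 0.3 or less. Luminal markers summed to 358 to 455 TPM, nearly all from KRT8, KRT18 and ESR1, and the estrogen receptor is also part of ER-Src. None of the luminal, fibroblast, blood or endothelial markers passed the test between TAM and ETH. In cultures measured in bulk, fewer cells with an RNA and less RNA per cell cannot be told apart.

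**Figure D1:**
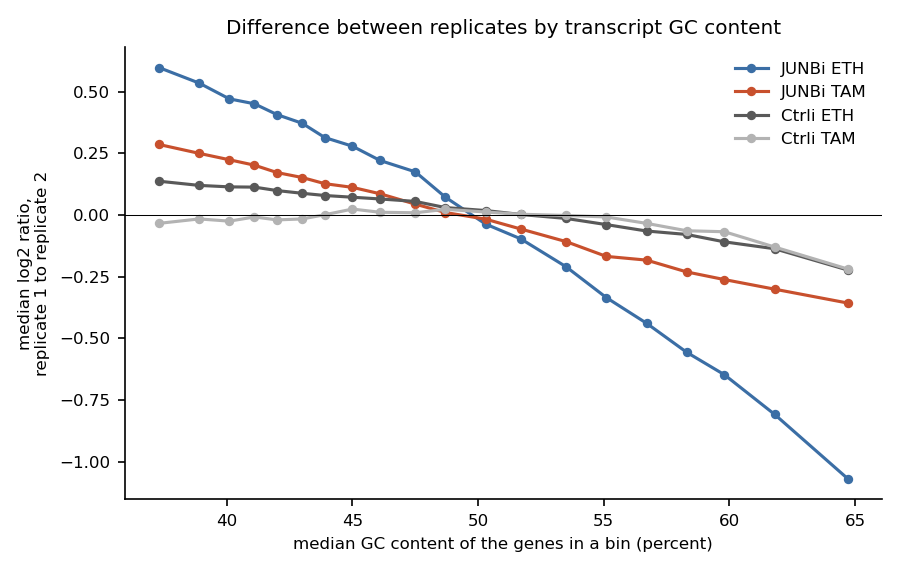
Median log2 ratio of replicate 1 to replicate 2 (vertical axis) in 20 bins of protein-coding genes ordered by the GC content of their transcripts (horizontal axis, percent), for JUNBi ETH, JUNBi TAM, Ctrli ETH and Ctrli TAM. The JUNBi ETH line runs from 0.598 in the bin with the lowest GC content to -1.07 in the bin with the highest, and the JUNBi TAM line from 0.286 to -0.357.

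JUNB mRNA was lowered but still rose with TAM. JUNB (chr19:12791486-12793315, GRCh38, plus strand) had normalized counts of 153 and 413 in JUNBi ETH and of 693 and 1007 in JUNBi TAM. With the control siRNA it had 546 and 701 in ETH and 2944 and 4116 in TAM. All JUNBi libraries were below both Ctrli libraries of the same treatment. The mean of JUNBi was 45.4% of Ctrli in ETH and 24.1% in TAM. In TPM, which is per length, JUNB was at 6.22 ± 3.29 (SD, n = 2) in JUNBi ETH and 17.6 ± 1.78 in JUNBi TAM, against 12.5 ± 0.743 and 62.7 ± 11.8 in Ctrli. Between JUNBi ETH and JUNBi TAM the rise was 1.6 ± 0.40 on the log2 scale (SE; DESeq2 adjusted p = 0.0036), and with the control siRNA it was 2.51. JUNB is rich in GC (64.9%). Its rise was 1.06 without ETH 1 (adjusted p = 0.0053) and 2.49 without ETH 2 (4.9e-14), and the call was lost without TAM 1 (0.0989) or without TAM 2 (0.87). The response in JUNBi was smaller than that in Ctrli by 0.90 ± 0.77, which did not pass (adjusted p = 1).

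With JUNB knocked down, a set of inflammatory, serpin and S100 genes still differed by large factors between TAM and ETH. No group used here separates an effect of Src from one of tamoxifen or AZD0530. Of 17129 genes tested, 365 passed an adjusted p of 0.01 (2.13%), 240 higher in TAM (1.4%) and 125 lower (0.73%). In the called genes the TAM and ETH libraries did not overlap. This follows largely from choosing genes by their p-values, and the share over all tested genes was not counted. The genes that rose had a median log2 fold change of 2.08, with 130 of 240 changed at least 4-fold and 55 at least 16-fold. The genes that fell moved less, with a median of -1.59, and 40 of 125 changed at least 4-fold. Protein-coding genes made up 224 of those that rose and 115 of those that fell. With the control siRNA the same comparison of TAM with ETH called 976 of 15724 genes (6.21%), 726 higher (4.62%) and 250 lower (1.59%), and with STAT3 siRNAs 124 of 15643 (0.793%), 113 higher (0.722%) and 11 lower (0.0703%). The counts themselves depend on the libraries. Leaving out 1 library leaves 1 in its group, so the spread is then taken from the other pair alone. Without a TAM library this is the ETH pair, whose replicates lay farther apart (SD 0.53 against 0.251). A call lost this way does not show that the fold change rests on that library. In OSMR the log2 fold change was 1.32 without TAM 1 and 1.49 without TAM 2, beside 1.40 with all libraries. In JUND it was -1.46 without ETH 1 and 0.40 without ETH 2, beside -0.82. The JUNBi count was 659 without ETH 1, 416 without ETH 2, 116 without TAM 1 and 121 without TAM 2. edgeR's quasi-likelihood test called 46, with 1638 genes at an unadjusted p under 0.05. With offsets for GC content, an alternative added after the data were seen, the count was 968 (543 higher, 425 lower).

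The strongest rises were in serpins, cytokines and secreted proteins of inflamed epithelium. SERPINB4 (chr18:63637259-63644256), an inhibitor of proteases made by squamous epithelium, went from normalized counts of 9.87 and 6.80 in ETH to 7074 and 5959 in TAM, a 782-fold rise. Its neighbour SERPINB3 (chr18:63655197-63661893) went from 84.4 and 62.2 to 13440 and 12290, a 176-fold rise. The SERPINB3 and SERPINB4 sequences are nearly identical, so how reads were shared between them is uncertain. In neither gene do the groups come near each other.

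IL24, a cytokine of the IL-10 family that signals through STAT3 (chr1:206897443-206904139), had 2.69 and 7.78 in ETH and 2137 and 1778 in TAM, a log2 fold change of 8.58 ± 0.51. LTF, which encodes the iron-binding antimicrobial protein lactoferrin, had 2.69 and 9.72 in ETH and 1557 and 1701 in TAM. In Ctrli TAM LTF reached only 53.9 and 36.8, so the JUNBi TAM libraries lie far above the Ctrli TAM libraries. The difference between the 2 responses of LTF was 2.64 ± 1.17 on the log2 scale and did not pass (adjusted p = 0.698), with ETH levels near 0 in either.

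CHI3L1, a secreted chitinase-like glycoprotein of inflamed tissue, rose from 7.18 and 10.7 to 1207 and 1558. TNC, the matrix glycoprotein tenascin C, rose from 6.28 and 10.7 to 1192 and 1361. IL1RL1, the receptor for IL-33, rose from 150 and 160 to 7841 and 9790. CNGB1, a subunit of cyclic nucleotide-gated channels, rose from 4.49 and 2.92 to 167 and 191. In each of these genes the TAM libraries agree closely and lie at least 10-fold above both ETH libraries.

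HP, the haemoglobin-binding acute phase protein haptoglobin, had 0 and 1 counts in the ETH libraries and 574 and 728 in the TAM libraries. The ratio of its normalized counts was 1199, with an exact 95% interval for counting error of 215 to 47390. The other acute phase gene with almost no reads in ETH was LBP, the lipopolysaccharide-binding protein, with 0 counts in either ETH library and 146 and 168 in TAM. Taking 3 counts per ETH library as the floor, LBP was at least 48.1-fold higher in TAM. Its call was lost with the replicate block (adjusted p = 0.258), and that of HP was not.

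**Figure D2:**
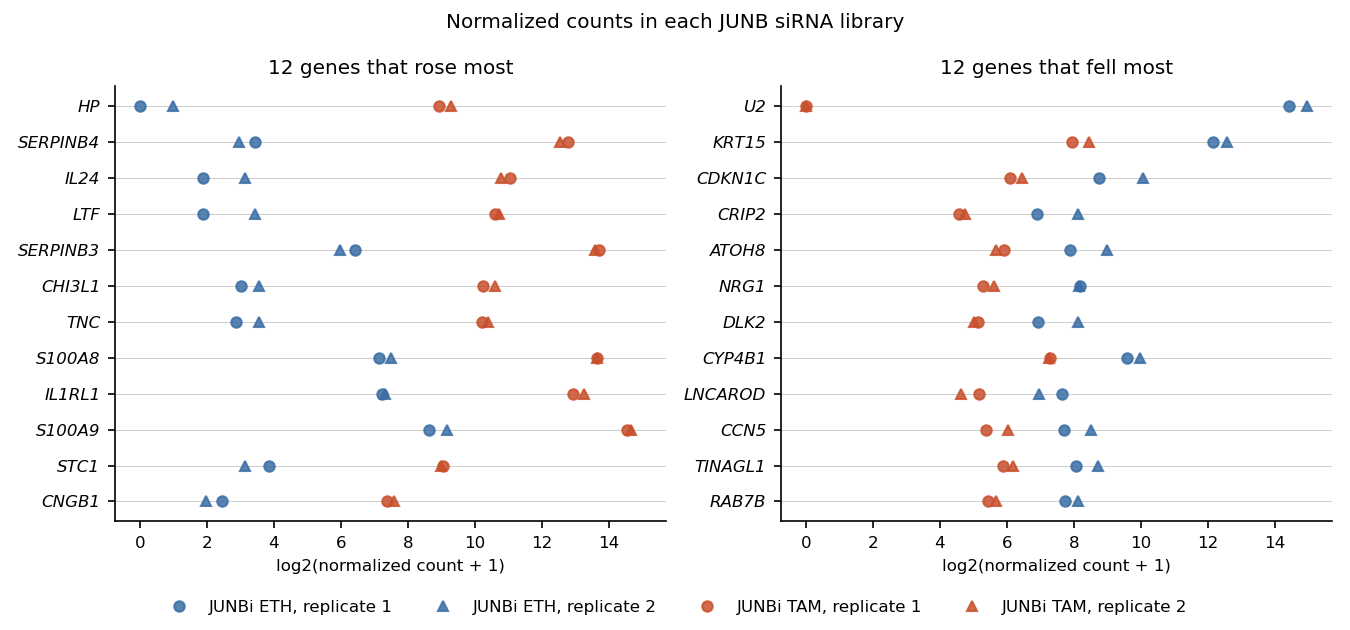
Normalized counts (log2 of the count plus 1, horizontal axis) in the 4 JUNB siRNA libraries for 12 genes with the largest rise and 12 with the largest fall, blue for ETH and red for TAM, circles for replicate 1 and triangles for replicate 2. Genes were picked only where the groups do not overlap. Apart from U2, the shift is larger in the genes that rose, where SERPINB4 goes from 9.87 and 6.80 to 7074 and 5959.

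Some genes of the STAT3 feedback loop rose with JUNB siRNAs. JUNB itself in JUNBi TAM was at 24.1% of Ctrli TAM. Its mean normalized count there (849.9) was not below that of Ctrli ETH (623.7). Of 22 genes in the list of STAT3 and gp130 feedback, all tested, 7 rose, none fell and 15 did not pass, with a median log2 fold change of 0.42 beside -0.01 over all genes tested. SOCS3, the inhibitor that STAT3 turns on to silence the receptor, had 68.2 and 117 in ETH and 2536 and 2910 in TAM, a rise of 4.89 ± 0.30. CISH, another member of the SOCS family, went from 7.18 and 15.6 to 159 and 225, a rise of 4.10 ± 0.53. STAT3 itself rose by 1.11 on the log2 scale. The groups do not overlap in SOCS3 and CISH, and their calls held without any 1 of the 4 libraries.

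The other genes of this list that rose act at the receptor or below it. OSMR, the receptor subunit for oncostatin M, rose from 860 and 772 to 2280 and 2013. BCL6, a repressor that STAT3 turns on, rose from 316 and 353 to 852 and 958. JAK2, the kinase of cytokine receptors, rose from 191 and 138 to 394 and 383. The calls of OSMR and BCL6 were lost when either TAM library was left out (adjusted p = 0.0967 and 0.027 for OSMR, 0.0541 and 0.169 for BCL6), and that of JAK2 also without ETH 2 (0.0309). With the control siRNA 12 of 21 tested genes of the list were higher. The median log2 fold change of these 21 was 0.93 in Ctrli and 0.47 in JUNBi. By the interaction test no gene of the list differed in its response from Ctrli. That test called 0.288% of all genes, so the lack of a call in a short list says little about its members.

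Promoter windows from RefSeq (GRCh38.p14, 250 bases before to 50 after a start site) were matched by symbol for 157 of the 240 genes that rose and 92 of the 125 that fell, and for 11360 of the 17129 tested. TTCNNNGAA, which reads alike on either strand, was found in 18 windows of the genes that rose (11.5%), in 5 of those that fell (5.43%) and in 717 of all tested genes (6.31%). TGANTCA, also alike on either strand, was found in 5 windows of the genes that rose (3.18%), 6 of those that fell (6.52%) and 539 of all tested (4.74%). Over all 27305 genes with a window the shares were 7.92% and 7.73%. These shares are descriptions of the letters in these windows. The 250 bases before the start are printed here for CISH and BCL6, which rose and hold TTCNNNGAA, for PLAUR and MT2A, which rose and hold TGANTCA, and for SDCBP2, which holds TGANTCA and whose response differed from that in Ctrli. These windows were picked because they hold a motif. The windows of SOCS3 (chr17:78359668-78359917, minus strand), OSMR and JAK2, which also rose, hold no TTCNNNGAA. Those of RHOU, GAS1 and SLC39A8, whose responses also differed from Ctrli, hold no TGANTCA. A window can lie inside the annotated gene, as in IL6 (window chr7:22726950-22727199, gene chr7:22725884-22732002). A window without a match thus does not show that the promoter of the gene lacks the motif. Capitals mark the matches to either motif. CISH (chr3:50611775-50612024, minus strand) holds 4 matches to TTCNNNGAA, and MT2A holds a match to each motif.
CISH: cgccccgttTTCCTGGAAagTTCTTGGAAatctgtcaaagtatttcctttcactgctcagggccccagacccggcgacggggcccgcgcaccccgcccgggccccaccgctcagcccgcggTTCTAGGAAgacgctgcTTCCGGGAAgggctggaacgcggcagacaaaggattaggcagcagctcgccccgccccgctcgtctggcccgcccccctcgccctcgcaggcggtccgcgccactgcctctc
BCL6 (chr3:187745469-187745718, minus strand): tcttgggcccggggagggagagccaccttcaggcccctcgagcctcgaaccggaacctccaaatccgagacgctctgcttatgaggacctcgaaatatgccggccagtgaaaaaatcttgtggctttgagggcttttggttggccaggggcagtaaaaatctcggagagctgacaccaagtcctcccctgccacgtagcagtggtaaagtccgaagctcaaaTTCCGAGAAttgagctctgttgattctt
PLAUR (chr19:43670170-43670419, minus strand): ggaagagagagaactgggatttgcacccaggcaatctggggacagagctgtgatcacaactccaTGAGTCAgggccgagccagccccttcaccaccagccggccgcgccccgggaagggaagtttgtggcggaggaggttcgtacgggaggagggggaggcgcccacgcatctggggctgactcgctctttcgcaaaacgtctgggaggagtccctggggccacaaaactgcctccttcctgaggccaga
MT2A (chr16:56608334-56608583, plus strand): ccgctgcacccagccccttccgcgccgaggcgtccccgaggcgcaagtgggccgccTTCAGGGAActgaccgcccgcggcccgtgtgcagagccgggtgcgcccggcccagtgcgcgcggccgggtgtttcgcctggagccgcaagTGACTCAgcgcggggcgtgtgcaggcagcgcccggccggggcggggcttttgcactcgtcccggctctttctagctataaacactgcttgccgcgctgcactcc
SDCBP2 (chr20:1329140-1329389, minus strand): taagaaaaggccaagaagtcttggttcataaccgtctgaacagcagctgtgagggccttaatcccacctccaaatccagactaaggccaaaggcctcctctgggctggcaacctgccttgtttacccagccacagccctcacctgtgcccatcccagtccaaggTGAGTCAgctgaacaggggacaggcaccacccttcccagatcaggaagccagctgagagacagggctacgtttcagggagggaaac

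The AP-1 family itself responded in part. Of 10 tested members, 3 rose, JUNB, FOS and BATF3, none fell and 7 did not pass, with a median log2 fold change of 0.36. FOS, the partner of JUN proteins, had 109 and 159 in JUNBi ETH and 439 and 584 in JUNBi TAM, a 3.84-fold rise. In Ctrli it went from 251 and 290 to 1527 and 1627, so both JUNBi TAM libraries stayed below the Ctrli TAM libraries. BATF3, a small AP-1 protein of immune cells, had 5.38 and 8.75 in JUNBi ETH and 53.6 and 91.7 in JUNBi TAM, against 297 and 260 in Ctrli TAM. The calls of both were lost without TAM 2 (adjusted p = 0.11 for FOS and 0.68 for BATF3), and that of BATF3 also without TAM 1 (0.0428).

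Several AP-1 members that were higher with the control siRNA did not pass with JUNB siRNAs. FOSL2, the FRA2 protein, had 1554 and 2248 in JUNBi ETH and 2347 and 2538 in JUNBi TAM, a log2 difference of 0.37, against a rise of 1.55 in Ctrli. Its ETH level in JUNBi was above both Ctrli ETH libraries (881 and 878). The interaction for FOSL2 was -1.17 and missed the threshold (adjusted p = 0.015). ATF3, a stress-induced member, had 30.5 and 43.7 in JUNBi ETH and 80.9 and 72.8 in JUNBi TAM, a difference of 1.06, against a rise of 3.17 in Ctrli, and its interaction was -2.10 (adjusted p = 0.097). The log2 difference was 0.36 for JUN, 0.29 for FOSL1, -0.28 for JDP2 and -0.33 for FOSB, none of which passed, and each turned sign when an ETH library was left out. JUND is the member with the highest GC content (69.9%), and it had 266 and 969 in JUNBi ETH and 318 and 376 in JUNBi TAM. Its direction turned with the ETH library left out, from -1.46 without ETH 1 (adjusted p = 3.63e-06) to 0.40 without ETH 2 (0.958).

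Cytokines rose with few members. Of 14 tested genes 4 rose, none fell and 10 did not pass, with a median of 1.10. IL6, the cytokine that starts the STAT3 loop, had 4.49 and 2.92 in JUNBi ETH and 74.1 and 65.1 in JUNBi TAM, an 18.8-fold rise. In Ctrli IL6 had 0 in either ETH library and 2.51 and 2.05 in TAM, so the JUNBi TAM libraries were above every Ctrli library. The call of IL6 was lost without TAM 1 (adjusted p = 0.087) or TAM 2 (0.0367), and the interaction with Ctrli was 0.70 ± 2.06 (adjusted p = 1). LIF, another ligand of gp130, rose from 76.3 and 111 to 270 and 282. IL32, an inflammatory cytokine, rose from 161 and 194 to 444 and 498. The calls of LIF and IL32 were lost without either TAM library, with adjusted p from 0.173 to 0.485. Of 10 tested chemokines 3 rose and 7 did not pass. CCL20, which draws lymphocytes to epithelia, rose from 419 and 286 to 2098 and 1667, a log2 fold change of 2.43. CCL2, which draws monocytes, had 0 and 1 counts in ETH and 101 and 105 in TAM, a ratio of 190 with an exact 95% interval of 33.7 to 7528. CXCL2, a neutrophil chemokine, rose from 302 and 350 to 800 and 719, a call that was lost without either TAM library. Of 15 genes of NF-kB subunits and feedback none passed, with a median of 0.20, where 5 were higher with the control siRNA. Over all tested genes 2.13% passed in JUNBi and 6.21% in Ctrli.

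Acute phase and antimicrobial genes were the list with the largest share of members called. Of 16 tested genes 9 rose, none fell and 7 did not pass, with a median of 2.16 beside -0.01 over all genes. SERPINA3, the acute phase inhibitor antichymotrypsin, rose from 953 and 1246 to 14760 and 18300. SERPINA1, antitrypsin, rose from 279 and 398 to 3272 and 3981. The genes for serum amyloid A (SAA1 by 1.84 and SAA2 by 3.23 on the log2 scale), complement factor B (CFB by 2.47) and the pattern-recognition protein PTX3 (1.81) rose as well. SAA1 and SAA2 are near-identical copies, so their single values are uncertain. Of 14 tested S100 genes 3 rose. S100A8 and S100A9, the subunits of calprotectin, went from 139 and 179 to 12840 and 12770, and from 395 and 574 to 23930 and 26060. S100P rose by 1.21, a call lost without either TAM library. Of 15 tested genes for urokinase and serpins 6 rose and none fell. PLAUR, the urokinase receptor, rose from 153 and 244 to 708 and 825, and SERPINE2, an inhibitor of urokinase and thrombin, from 100.5 and 100.1 to 458 and 515. PLAUR lost its call without TAM 2 (adjusted p = 0.0298).

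Of 22 tested genes in the list of NRF2 genes 3 rose, 2 fell and 17 did not pass, with a median of -0.01. The members that rose were metallothioneins, small proteins that bind zinc and copper. MT1X had 426 and 488 in ETH and 9794 and 11740 in TAM, a rise of 4.57 ± 0.24. MT2A rose from 4326 and 6587 to 19720 and 24760, and MT1E from 3197 and 4025 to 11580 and 13460. The metallothionein genes share much of their sequence, so the split of reads among them is uncertain. Outside that list, SLC39A8, which carries zinc and manganese into cells, rose from 921 and 812 to 8549 and 7502, a 9.32-fold rise. In the NRF2 list GCLC, for glutathione synthesis, fell from 2178 and 1907 to 838 and 775, and TXNRD1, a thioredoxin reductase, from 5443 and 4609 to 2390 and 2051. The calls of both were lost without either TAM library (adjusted p from 0.0622 to 0.33).

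Among keratins 3 of 18 tested genes rose and 3 fell. KRT6B, a keratin of wounded and proliferating epidermis, rose from 79.9 and 82.6 to 723 and 870. KRT6A and KRT6C rose by 1.47 and 2.04, and reads are hard to assign among these near copies. KRT15, a keratin of basal cells, fell from 4568 and 6121 to 248 and 349, a 17.8-fold fall. KRT13 fell from 220 and 310 to 45.1 and 84.8, and KRT81, a hair keratin, from 26370 and 40030 to 9311 and 12590. KRT15 kept its call without any 1 of the libraries. KRT13 lost it without ETH 2 (adjusted p = 0.0297) or TAM 1 (0.234), KRT81 without TAM 1 (0.0787) and KRT6C without ETH 1 or either TAM library (0.035 to 0.621). Of 8 tested genes of the cornified envelope 1 fell, PPL, for the cross-bridging protein periplakin, which fell by 1.30 on the log2 scale and lost its call without TAM 1 (adjusted p = 0.398) or TAM 2 (0.027).

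The other genes that fell most, ranked by size alone, do not form a list fixed for this comparison. CDKN1C, the cell cycle inhibitor p57, fell from 426 and 1071 to 67.3 and 87.4. CDKN1C (62.9% GC), CRIP2 (67.0%) and DLK2 (62.1%) are rich in GC. Without ETH 1 their log2 changes were -3.77, -3.48 and -3.07, and without ETH 2 they were -2.45, -2.26 and -1.87. LNCAROD (42.6% GC) moved the other way, -2.05 without ETH 1 and -2.76 without ETH 2. ATOH8, a basic helix-loop-helix factor, fell from 234 and 504 to 58.8 and 50.6. NRG1, the neuregulin that binds ERBB3, fell from 288 and 282 to 38.3 and 48.0. CYP4B1, a cytochrome P450, fell from 776 and 1012 to 155 and 152. CCN5, a secreted protein of the CCN family, fell from 210 and 366 to 40.9 and 64.3, and lost its call without TAM 1 (adjusted p = 0.0327). CRIP2, DLK2, LNCAROD, TINAGL1 and RAB7B fell by 2.39 to 3.01 on the log2 scale, and of these TINAGL1 alone kept its call without any 1 library. EGFR, the receptor for the EGF in the medium, fell from 4750 and 4567 to 1841 and 1678, a call lost without either TAM library (adjusted p = 0.0222 and 0.0509). IGFBP3, which binds insulin-like growth factors, fell from 522 and 644 to 134 and 121. Several falls started from ETH levels above those of Ctrli ETH. Ctrli ETH had 81.4 and 145 in CDKN1C, 81.4 and 118 in ATOH8 and 127 and 94.5 in NRG1. It had 42.74 and 62.25 in CYP4B1 and 42.74 and 66.86 in CCN5. None of these genes passed in Ctrli, and CCN5 in Ctrli TAM was at 50.15 and 53.21. TINAGL1, DLK2 and RAB7B did fall in Ctrli, and TINAGL1 was higher in Ctrli ETH (485 and 594).

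The gene with the largest fall, U2, is a multicopy small nuclear RNA with 22210 and 31970 in JUNBi ETH, 0 in JUNBi TAM, 0 in all 4 Ctrli libraries and 3391 in STAT3i ETH 2 alone of the STAT3i libraries. Reads of such copies can be given wholly to a copy or to none, so that this value is uncertain. The histone gene H3C4, another member of a family of near-identical copies, had 24.2 and 111 in ETH and 0.852 and 0 in TAM, and is uncertain for the same reason.

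Of 22 YAP/TAZ targets 4 fell, none rose and 18 did not pass, with a median of -0.40. Besides IGFBP3 these were AJUBA, a LIM protein that inhibits LATS kinases, which fell from 1067 and 1434 to 444 and 407, ANKRD1, a nuclear ankyrin repeat protein, from 1118 and 789 to 484 and 418, and CRIM1, which binds BMPs, from 5635 and 6079 to 3135 and 2971. Leaving out a TAM library ended the calls of AJUBA (adjusted p = 0.0294 and 0.056), ANKRD1 (0.436 and 0.898) and CRIM1 (0.528 and 0.707), and ANKRD1 also lost it without ETH 1 (0.041), whereas that of IGFBP3 held. With the control siRNA 3 genes of this list were higher and 2 lower.

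Of 27 tested genes of glycolysis and hypoxia 5 rose, none fell and 22 did not pass, with a median of -0.01, equal to that over all genes tested. STC1, a secreted glycoprotein, rose from 13.5 and 7.78 to 530 and 507. VEGFA, the growth factor of blood vessels, rose from 359 and 485 to 1267 and 1395, PFKFB3, which drives glycolysis through fructose 2,6-bisphosphate, from 153 and 225 to 506 and 567, SLC2A3, a glucose carrier, from 100.5 and 71.9 to 241 and 248, and LDHA, lactate dehydrogenase, from 10880 and 7945 to 17690 and 17810. The calls of the last 4 were lost without either TAM library (adjusted p from 0.0121 to 0.774), and SLC2A3 also lost it without ETH 2 (0.0278).

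In several lists no gene or few genes passed. None of 21 MAPK feedback genes, 27 DNA replication genes, 25 mitosis genes, 20 cholesterol synthesis genes or 13 mitochondrial mRNAs passed, with medians of -0.07, 0.33, 0.28, 0.05 and 0.20. In Ctrli the medians were 0.17, -0.27, -0.19, -0.15 and -0.04 in the same order. Over all tested genes only 2.13% passed in JUNBi, so the lack of a call in lists this short says little about their members. Of 27 interferon genes 2 rose, IFITM1 and IFITM3, membrane proteins that block virus entry, by 1.53 and 1.42, and the call of either was lost without TAM 1 or TAM 2 (adjusted p from 0.0201 to 0.842). Of 11 matrix metalloproteinases and their inhibitors TIMP1 rose, from 1400 and 2186 to 3365 and 4363, and TIMP3 fell, from 1102 and 1242 to 386 and 356. The call of TIMP1 was lost without either TAM library (adjusted p = 0.163 and 0.982) and that of TIMP3 without TAM 2 (0.0178). ITGB6, the integrin subunit that frees TGF-beta, rose from 191 and 175 to 1547 and 1397. SNAI1, a repressor of E-cadherin, had 2.69 and 4.86 in ETH and 41.7 and 50.6 in TAM, and was the 1 gene of 16 tested EMT genes that passed, though not when any 1 library was left out.

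The lineage factors ELF3 and GRHL1 rose and EHF fell. ELF3, an ETS factor of epithelia, had 129 and 213 in ETH and 738 and 792 in TAM. GRHL1, a grainyhead factor of the epidermal barrier, had 44 and 31.1 in ETH and 139 and 140 in TAM. EHF, an ETS factor close to ELF3, had 509 and 426 in ETH and 224 and 190 in TAM. The call of ELF3 held without any 1 library, whereas GRHL1 lost it without ETH 2 (adjusted p = 0.0332), EHF without ETH 1 (0.0378), and either of them without a TAM library (0.389 to 0.85). The other 13 of 16 tested factors did not pass.

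**Figure D3:**
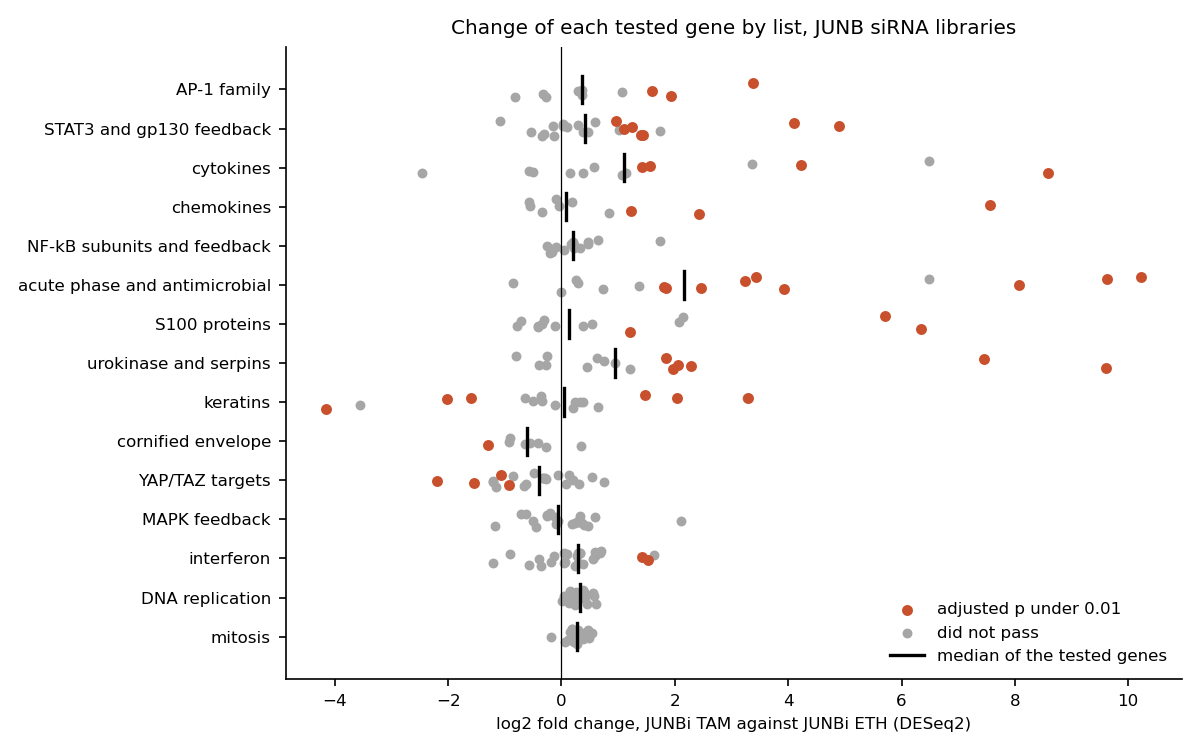
Log2 fold change between JUNBi TAM and JUNBi ETH (horizontal axis) of each tested gene in 15 gene lists, red where the adjusted p was under 0.01 and grey where it was not, with a black bar at the median of the list. The medians of the acute phase and cytokine lists, 2.16 and 1.10, lie farthest to the right, and those of the cornified envelope and the YAP/TAZ targets, -0.60 and -0.40, farthest to the left.

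Most genes that rose with JUNB siRNAs had also been called with the control siRNA. Of the 365 genes, 262 were called in the same direction in Ctrli, which is 71.8% of the JUNBi genes and 26.8% of the 976 Ctrli genes, and 0 were called in the opposite direction. The share was 84.2% for the genes that rose (202) and 48.0% for those that fell (60). The 2 comparisons share no library. Conversely, the 726 genes higher in Ctrli had a median log2 fold change of 1.28 there and of 0.77 in JUNBi, where 649 had an estimate in the same direction and 27.8% were called. The 250 genes lower in Ctrli had a median of -0.83 there and -0.60 in JUNBi, with 192 in the same direction and 24.0% called. These genes were chosen by their Ctrli values, so the Ctrli medians are not an independent measure. Of the 38 genes called higher in JUNBi and not in Ctrli, 2 differed between the responses by the interaction test, and of the 65 called lower, 2 did. Among those with a Ctrli estimate, 31 of 37 of the higher and 59 of 64 of the lower genes had the same direction in Ctrli. Leaving out a JUNBi TAM library lowered the number shared to 99 or 98.

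The 10 genes with the largest mean change over both responses include several with no reads in JUNBi ETH. Besides HP, LBP, CCL2, SERPINB3, SERPINB4 and IL24 these were TMPRSS4, TRIM40, CD300E and HBA2. TMPRSS4, a membrane serine protease, had 0 counts in either ETH library and 49 in each TAM library, which is at least 15.0-fold higher. TRIM40, a ubiquitin ligase, had 73 and 63 counts in TAM (at least 20.8-fold), HBA2, an alpha globin with a near-identical copy, 94 and 131 (at least 34.5-fold), and CD300E, a receptor of myeloid cells, 37 and 29 (at least 10.1-fold). The call of CD300E was lost without any 1 of the libraries, and that of TMPRSS4 without ETH 2 or either TAM library. With the replicate block the calls of TRIM40 (adjusted p = 0.43), HBA2 (0.326) and CD300E (0.601) were lost, and with GC offsets added that of TMPRSS4 too (0.417).

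The responses with JUNB and control siRNA were then compared directly by the interaction of siRNA and treatment. Of 15949 genes tested, 46 differed (0.288%), with 35 lower in JUNBi (0.219%) and 11 higher (0.069%). Of the 35, 16 rose in Ctrli by estimate and had a smaller rise in JUNBi, 17 rose in Ctrli and had an estimate below 0 in JUNBi, and KRT15 fell in either and fell more in JUNBi. The remaining gene was U2. This count moved more than any other here when 1 library was left out, which also changes the spread that the test uses. It was 480 without JUNBi ETH 1, 105 without JUNBi ETH 2, 43 without JUNBi TAM 1, 25 without JUNBi TAM 2 and 18 to 21 without any 1 of the Ctrli libraries. edgeR called 0, with 4 at an adjusted p under 0.05 and 1337 at an unadjusted p under 0.05. With offsets for GC content, an alternative added after the data were seen, 230 differed (89 higher, 141 lower), and 37 of the 46 were among them. With the replicate number as a block 100 differed (37 higher, 63 lower).

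NDRG1, a gene of stress and hypoxia, differed whichever library was left out. In Ctrli it rose from 943 and 1021 to 5916 and 5297. In JUNBi it had 3051 and 4083 in ETH and 1837 and 2289 in TAM, a change of -0.78 that did not pass (adjusted p = 0.0771). This fall did pass without ETH 1 (adjusted p = 7.28e-05), with the replicate block (2.92e-05), with GC offsets (6.35e-12), with both (1.37e-08) and in a fit over all ER-Src groups (0.0015). The JUNBi ETH libraries were thus above the Ctrli ETH libraries, and the JUNBi TAM libraries below the Ctrli TAM libraries. The difference of the responses was -3.29 ± 0.27 (adjusted p = 3.36e-29), and the adjusted p was 1.7e-16 or less without any 1 of the 8 libraries. With STAT3 siRNAs NDRG1 had 1013 and 1148 in ETH and 2112 and 2136 in TAM.

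STC1 and ADAMTS4 rose in either response but less with JUNB siRNAs. STC1 reached 530 and 507 in JUNBi TAM and 5261 and 4298 in Ctrli TAM from like levels in ETH (12.2 and 12.7 in Ctrli), a difference of -2.98 ± 0.51 that held without any 1 library. ADAMTS4, a protease that cuts aggrecan, reached 129 and 114 in JUNBi TAM and 1268 and 1126 in Ctrli TAM from under 5 in ETH, a difference of -4.08 ± 0.95. The call of ADAMTS4 was lost in a fit over all ER-Src groups (adjusted p = 0.0282), without any 1 of the Ctrli libraries, without JUNBi ETH 2 and without JUNBi TAM 2. SERPINB13, a serpin of squamous epithelium, had 272 and 238 in JUNBi TAM and 662 and 643 in Ctrli TAM, a difference of -2.08. SERPINA3 also rose less in JUNBi, by -1.12 ± 0.26.

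A further group rose in Ctrli and did not pass in JUNBi. RHOU, a small GTPase, had 52.9 and 71.5 in Ctrli ETH and 370 and 401 in Ctrli TAM, but 97.8 and 83.6 in JUNBi ETH and 88.6 and 107 in JUNBi TAM, where the groups overlap. SDCBP2, a PDZ protein whose promoter window is printed above, had 195 and 271 in Ctrli ETH and 587 and 632 in Ctrli TAM, against 199 and 311 in JUNBi ETH and 124 and 136 in JUNBi TAM. GAS1, a growth-arrest protein of the membrane, had 744 and 886 in Ctrli TAM, and 239 and 631 in JUNBi ETH and 231 and 316 in JUNBi TAM, where the groups overlap. LINC01127, a long non-coding RNA, had 131 and 133 in JUNBi TAM, within a few counts of its 139 and 136 in JUNBi ETH, and 398 and 295 in Ctrli TAM. The differences were -2.52, -2.35, -2.68 and -3.08. That of SDCBP2 held without any 1 library, that of LINC01127 held wherever DESeq2 gave an adjusted p, that of RHOU was lost without 3 of the Ctrli libraries, and that of GAS1 without JUNBi TAM 1 and without 3 of the Ctrli libraries. DESeq2 gave no adjusted p for LINC01127 and RHOU without JUNBi ETH 2.

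By list, these differences touched keratins with 3 of 18 tested genes, KRT15, KRT16 and KRT17, all with a negative difference. KRT16 and KRT17 had a smaller rise in JUNBi by estimate, whereas KRT15 had a larger fall. KRT15 had 950 and 1977 in Ctrli ETH, below JUNBi ETH (4568 and 6121). Its TAM levels were alike, 276 and 350 in Ctrli and 248 and 349 in JUNBi. The differences also touched urokinase and serpins with 2 of 15 (SERPINB1 and SERPINB13), and glycolysis and hypoxia with 2 of 29 (NDRG1 and STC1). In the lists of AP-1 and of STAT3 and gp130 feedback, and in those of cytokines and chemokines, 0 genes differed of 9, 22, 14 and 8 tested. Over all genes 0.288% differed, so a count of 0 in lists this short says little about their members. Their median log2 fold changes in JUNBi, over genes tested in both runs, were 0.37, 0.47, 1.06 and 0.51. In Ctrli the medians were 1.55, 0.93, 0.69 and 0.95.

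IL1RL1, SLC39A8 and MT1E responded more with JUNB siRNAs. IL1RL1 had 334 and 386 in Ctrli ETH and 5555 and 6140 in Ctrli TAM, so that JUNBi was lower in ETH (150 and 160) and higher in TAM (7841 and 9790), a difference of 1.82 ± 0.26 (adjusted p = 1.64e-08) that held without any 1 library but not in a fit over all ER-Src groups (0.0925). SLC39A8 reached 8549 and 7502 in JUNBi TAM and 3547 and 3625 in Ctrli TAM, a difference of 1.10 ± 0.23. MT1E reached 11580 and 13460 in JUNBi TAM and 8163 and 10080 in Ctrli TAM, a difference of 1.17. Part of it lies in ETH, where MT1E had 3197 and 4025 in JUNBi and 6196 and 5509 in Ctrli. MT1L, a metallothionein pseudogene with uncertain reads, differed by 1.94. The calls of SLC39A8, MT1E and MT1L were lost without any 1 of the Ctrli libraries and without JUNBi TAM 2. SLC39A8 lost its call without JUNBi TAM 1 as well.

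Other genes with a positive difference are uncertain. SENP3-EIF4A1, NME1-NME2 and RAB4B-EGLN2 are readthrough genes that share exons with their neighbours, and HNRNPA1L3 resembles HNRNPA1. NME1-NME2 had 4403 and 3577 in Ctrli ETH, but 288 and 424 in JUNBi ETH, and 1797 and 566 in the STAT3i ETH libraries. In each of these genes the JUNBi estimate was above 0 without passing, and the Ctrli estimate below 0. ENSG00000258232, an RNA without a symbol, had 0 in both Ctrli ETH libraries and in STAT3i ETH 1, and 614 and 1339 in JUNBi ETH, and is uncertain in the same way as U2.

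**Figure D4:**
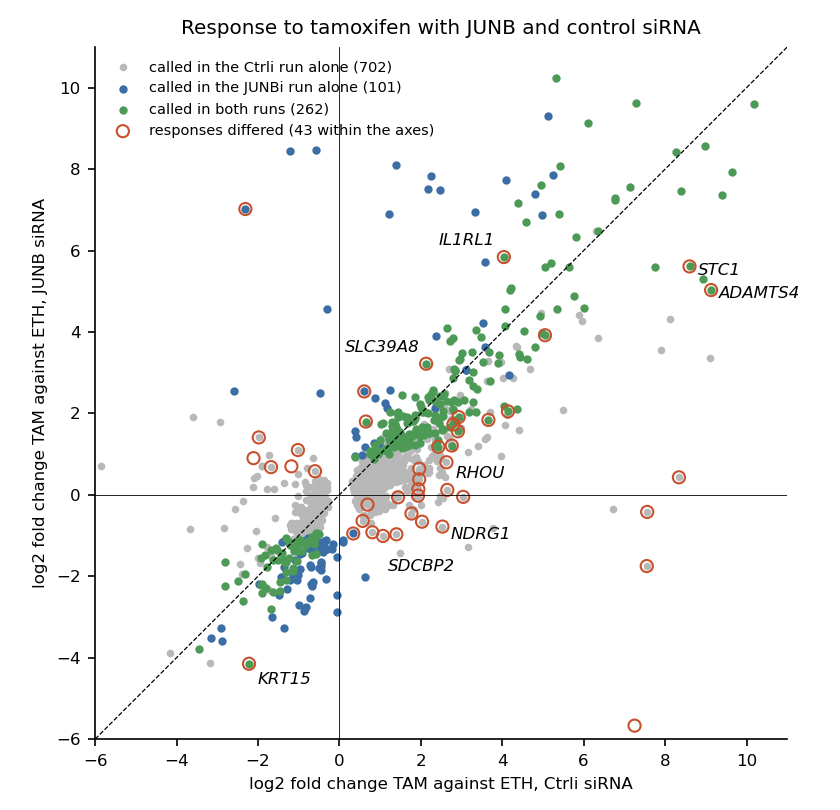
Log2 fold change between TAM and ETH with control siRNA (horizontal axis) and with JUNB siRNA (vertical axis) for 1056 genes called in either comparison that lie within the axes. Grey genes were called in the Ctrli run alone, blue in the JUNBi run alone and green in both (262), red rings mark 43 genes whose responses differed, and the dashed line is where responses are equal. NDRG1, RHOU and SDCBP2 sit right of the line at or below 0 in JUNBi, or near it, and IL1RL1 and SLC39A8 above the line.

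The response with JUNB siRNAs was compared with that under STAT3 siRNAs in the same way. Of 16169 genes tested, 185 differed (1.14%), 68 with a higher response in JUNBi (0.421%) and 117 with a lower one (0.724%), and the count ran from 89 without STAT3i TAM 2 to 299 without JUNBi ETH 1. A fit blocked on replicate number gave 573 (277 higher, 296 lower), GC offsets gave 662 (295 higher, 367 lower) and fitting all ER-Src groups together gave 559 (231 higher, 328 lower), so that the split between directions depends on the fit. edgeR called 3, with 66 at an adjusted p under 0.05 and 1753 at an unadjusted p under 0.05. TNC and IL24 rose far less with STAT3 siRNAs. TNC had 178 and 170 in STAT3i TAM against 1192 and 1361 in JUNBi TAM, a difference of 5.28 ± 0.50. IL24 had 516 and 407 in STAT3i TAM against 2137 and 1778 in JUNBi TAM, a difference of 4.22 ± 0.64. Part of either difference lies in ETH, where JUNBi was lower and near 0. TNC had 40.64 and 47.25 in STAT3i ETH against 6.28 and 10.7 in JUNBi ETH. IL24 had 12.7 and 32.9 in STAT3i ETH against 2.69 and 7.78 in JUNBi ETH. S100A9 (3.52), MT1X (3.06), IL1RL1 (3.06), SLC39A8 (2.98), SERPINA1 (2.40), FOS (2.23) and SOCS3 (1.88) also had a larger response in JUNBi, with adjusted p of 0.00251 or less. HP had 9.83 and 4.39 in STAT3i TAM and 489 and 624 in JUNBi TAM, and its difference of 8.58 rests on ETH levels near 0.

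On the other side, KRT15, CDKN1C, CCN5 and FBXO32 fell with JUNB siRNAs, whereas with STAT3 siRNAs CDKN1C and FBXO32 rose and KRT15 and CCN5 did not pass. KRT15 had 1400 and 762 in STAT3i ETH and 1839 and 1266 in STAT3i TAM, where the groups overlap, and differed by -4.66 ± 0.45. CDKN1C had 126 and 152 in STAT3i ETH and 407 and 422 in STAT3i TAM, a difference of -4.83 ± 0.55. FBXO32, a ubiquitin ligase of muscle wasting, fell from 410 and 418 to 184 and 182 in JUNBi and had 87.2 and 54.4 in STAT3i ETH and 331 and 318 in STAT3i TAM. Its fall in JUNBi lost the call when any 1 of the 4 libraries was left out. CCN5 had 44 and 52.4 in STAT3i ETH and 115 and 102 in STAT3i TAM. IFI27, an interferon gene, had 99.6 and 239 in JUNBi ETH and 140 and 210 in JUNBi TAM, where the groups overlap, and 32.2 and 30.8 in STAT3i ETH and 394 and 292 in STAT3i TAM, a difference of -3.37. In NDRG1 the response in JUNBi was also below that in STAT3i, by -1.74 ± 0.30 (adjusted p = 3.36e-06).

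**Figure D5:**
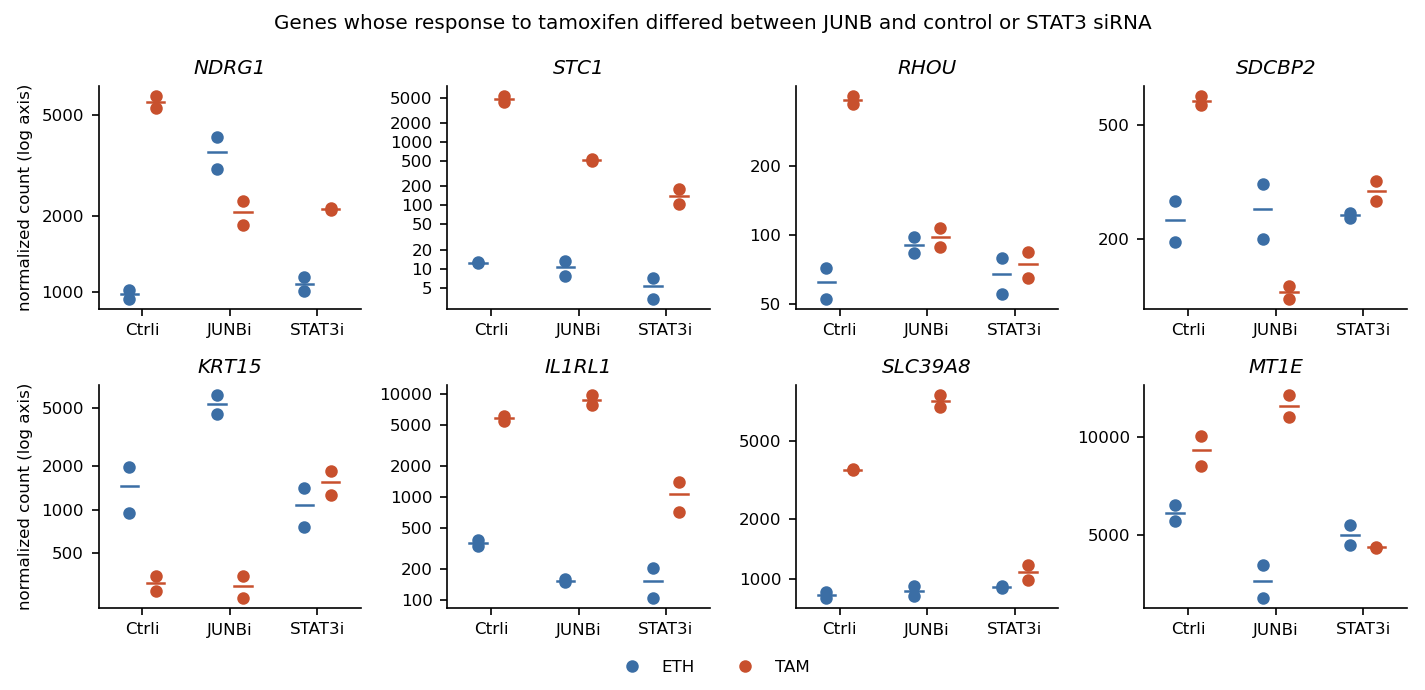
Normalized counts (log axis) of 8 genes in the libraries with control, JUNB and STAT3 siRNA, blue for ETH and red for TAM, with a bar at the mean of the 2 libraries. NDRG1 in JUNBi goes from 3051 and 4083 in ETH to 1837 and 2289 in TAM while it rises in Ctrli, and KRT15 falls in JUNBi and Ctrli and overlaps in STAT3i.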

How the data were processed

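Total RNA libraries were sequenced per the labels, and the authors aligned reads with STAR to GENCODE release 30 (genome hg38) and deposited RSEM's expected counts and TPM per gene. Ensembl genes alone were kept (60725 of 61471 identifiers). Names and coordinates came from GENCODE 44. Expected counts, as the authors deposited them, were rounded and tested with DESeq2 1.42.0 in R 4.3.3, JUNBi TAM against JUNBi ETH, with genes called at an adjusted p (Benjamini-Hochberg) under 0.01. Differences between responses are the interaction of siRNA and treatment. Normalized counts are on 1 set of size factors over the 20 ER-Src libraries and do not compare genes, whereas the TPM values the authors deposited are per length. edgeR 4.0.16 was an alternative, as were TMM factors, filters, a fit over all groups, a replicate block, a threshold of 0.05, offsets for GC content (added after the data were seen) and leaving out each library. On simulated counts, where 200 genes had a log2 change of 1.5, 60% were recovered by DESeq2 with 11 false calls for JUNBi (32035 genes), and 51% with 10 false calls for the interaction with Ctrli (34888 genes). edgeR recovered 39% and 22.5%. With 2 libraries per group an exact permutation test of a single gene cannot go below a two-sided p of 0.333, so only fits across all genes were used. Intervals and floors cover counting error only.

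Genes named are JUNB and all AP-1 members, IL6, the 12 that rose and the 12 that fell most (called, mean normalized count of at least 100, with a symbol), up to 5 called members of each of 31 gene lists, the 10 largest interactions in each direction against Ctrli and the 5 against STAT3i (mean of at least 100), and the 10 with the largest mean change among those called in JUNBi and Ctrli. Other genes named in the text are called members of the lists (STAT3, SAA1, SAA2, CFB, PTX3, KRT6A, KRT16, KRT17 and SERPINB1), chosen after their values were seen. The 12 that rose and the 12 that fell most also had to show no overlap between TAM and ETH libraries. The comparison, lists and members were chosen with earlier results of these data known. Other samples of the series and identifiers outside Ensembl were not used here, and a few genes that the rules above would name are not reported here.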

Additional observations from a re-analysis of the deposited data

Results flagged for a closer look

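The genes here were set apart because their response to TAM differed between siRNAs by the interaction test (DESeq2, adjusted p under 0.01, largest differences in each direction). Against Ctrli the response in JUNBi was lower on the log2 scale for ADAMTS4 (-4.08), NDRG1 (-3.29), LINC01127 (-3.08), STC1 (-2.98), GAS1 (-2.68), RHOU (-2.52) and SDCBP2 (-2.35). It was higher for IL1RL1 (1.82), MT1E (1.17), SLC39A8 (1.10) and the pseudogene MT1L (1.94). None of these calls was made by edgeR's quasi-likelihood test.

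Values that rest on shared exons, near copies or all-or-none read assignment were 3.40 for SENP3-EIF4A1, 2.38 for NME1-NME2, 2.14 for RAB4B-EGLN2, 1.89 for HNRNPA1L3, 3.01 for ENSG00000260342, -29.09 for ENSG00000269968, -17.95 for U2 and -11.95 for ENSG00000258232. The last 3 come from groups at 0 counts in some libraries, where a fitted fold change is no bound.

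Against STAT3i the response in JUNBi was higher for HP (8.58), TNC (5.28) and IL24 (4.22), and lower for CDKN1C (-4.83), KRT15 (-4.66), CCN5 (-3.60), IFI27 (-3.37) and FBXO32 (-3.34). The uncertain values there were 26.93 for ENSG00000269968 and 26.15 for ENSG00000272196.2.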

How the results depend on the processing

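The number of JUNBi genes called (365) was 46 by edgeR, 949 in a fit over all ER-Src groups, 968 with GC offsets and 615 with GC offsets and the replicate block, and 116 to 659 with 1 library left out. The interactions with Ctrli (46) numbered 0 by edgeR, 128 over all groups, 100 with the replicate block, 79 at an adjusted p under 0.05, 230 with GC offsets, 325 with both, and 18 to 480 with 1 library left out. The interactions with STAT3i (185) numbered 3, 559, 573, 303, 662 and 881 in the same order, and 89 to 299 with 1 library left out. Genes called alike in JUNBi and Ctrli (262) numbered 44 by edgeR, 524 over all groups, 518 with GC offsets and 98 to 326 with 1 library left out. Other alternatives moved these counts by less than 1.5 times. The replicate block gave 473 JUNBi genes and 290 shared genes. Same-numbered libraries share only a number in the labels. Across genes the replicate differences of JUNBi ETH and JUNBi TAM had a correlation of 0.81, a hint from the data and not the design.

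The log2 fold change between TAM and ETH turned sign with a library left out for 8 named genes that were not called. It ran from -0.00 (without ETH 1) to 0.87 in JUN, from -1.46 to 0.40 (without ETH 2) in JUND, from -1.46 to 0.30 (without TAM 1, and 0.06 without ETH 2) in FOSB, from -0.12 (without ETH 1) to 0.87 in FOSL1, from -0.54 to 0.06 (without ETH 2) in JDP2, from -1.19 to 0.21 (without ETH 2) in GAS1, from -0.03 (without TAM 2) to 0.26 in RHOU, and from -0.43 (without ETH 1, and -0.27 without TAM 2) to 0.83 in IFI27. JUND was called without ETH 1, and GAS1 too. It also turned for ENSG00000269968 (5.32 with the replicate block, 5.35 with GC offsets added, -2.98 to 13.46 with a library left out), ENSG00000258232 (-0.65 to 0.47, and 0.13 without TAM 1) and ENSG00000272196.2 (-6.60 to 6.19, and 0.77 without TAM 1). The cause was not tested. Of 89 named genes called in JUNBi, 22 stayed called under every alternative run and 35 under every one that used DESeq2. Without independent filtering JAK2, ANKRD1, LDHA, EHF and FBXO32 lost their calls.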
